A study of Mus musculus with 8 samples.

Results

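Genes of fat handling were followed in basal cells of the mouse mammary gland, the contractile cells that line the outside of the ducts, next to a pad of fat. The 10 genes were Lpl, Cd36, Fabp4, Pparg, Plin1, Cidec, Lipe, Lep, Adipoq and Retn, and all 10 were found among the 27164 genes of the deposited tables. They were chosen by name with earlier results of these data known, so comparisons of their calls with all genes are descriptive. RNA was sequenced in 8 libraries from 4 sorted populations with 2 libraries each, namely Lgr5+T8hi and Lgr5-T8hi cells, then Lgr5+T8- and Lgr5-T8- cells, and each population has 1 library in each of 2 batches that the labels name. T8 is Tspan8, a membrane protein of the tetraspanin family, and Lgr5 is a receptor for R-spondins. All 4 populations came from untreated C57BL/6 females aged 10 weeks with the genotype Lgr5-GFP-IRES-CreERT2, in which green fluorescent protein and a tamoxifen-inducible Cre are made from the Lgr5 locus. The labels state neither whether the allele was heterozygous nor how many mice gave cells to a library. Since they do not say either that replicates are different animals, the p-values rest on a spread between libraries that may be only technical.

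White adipocytes take up fatty acids that lipoprotein lipase (Lpl) frees from circulating triglyceride at the capillary wall, with Cd36 in the membrane and Fabp4 in the cytosol as fatty acid carriers. They store them in a lipid droplet coated by Plin1 and enlarged by Cidec, and release them through lipases that include Lipe, under a program led by the nuclear receptor Pparg. They also secrete the hormones leptin (Lep), adiponectin (Adipoq) and resistin (Retn). Several of these genes are known outside fat: Cd36 and Fabp4 are made by capillary endothelium, and Cd36, Fabp4, Lpl and Pparg by macrophages.

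Averaged over Lgr5+ and Lgr5- cells, the fatty acid genes and Pparg stood higher in T8hi cells than in T8- cells, and Lep stood lower. Of the 10 genes, 7 had enough counts to be tested, and of these Lpl, Fabp4, Cd36, Pparg and Lipe were higher and Lep was lower in the T8hi populations at an adjusted p under 0.05 (edgeR quasi-likelihood test, adjusted over 16526 genes), while Plin1 was not called. Among all genes tested, 9.13% were called higher and 5.52% lower in this comparison. The median log2 fold change was 1.24 over the 7 tested genes and -0.02 over all genes tested. Adipoq, Cidec and Retn were too scarce to test. Within Lgr5- cells alone, 1 of the 7, Lpl, was called higher and 1, Lep, lower, against 3.70% and 3.36% of all genes. By Lgr5, averaged over T8hi and T8- cells, 0 of the 7 genes were called in either direction, against 4.23% of all genes called higher and 4.86% called lower.

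The libraries held 24571300 to 38384875 counts, so that 3 counts, the upper limit that a count of 0 allows, corresponded to 0.0799 to 0.12 CPM (counts per 1000000 counts of a library, with library sizes scaled by TMM). This limit covers counting error only. The sort genes followed their labels, with Tspan8 at 150 to 289 CPM in T8hi libraries and 3.16 to 10.6 CPM in T8- libraries, and Lgr5 at 174 to 212 CPM in Lgr5+ libraries and 50.5 to 129 CPM in Lgr5- libraries. The separation was uneven. Lgr5 stood at 119 and 129 CPM in Lgr5-T8hi libraries against 58.3 and 50.5 CPM in Lgr5-T8- libraries. Tspan8 stood at 289 and 261 CPM in Lgr5+T8hi libraries against 167 and 150 CPM in Lgr5-T8hi libraries. Basal cell markers, a list of 9 genes that includes Krt5, Krt14 and Acta2, summed to 15700 to 18900 CPM in T8hi libraries and to 20700 to 23900 CPM in T8- libraries. Of the 9, 5 were called lower by T8, Trp63, Acta2, Myh11, Cnn1 and Itga6, against 5.52% of all genes tested. Krt5 (0.02 ± 0.07 log2 units, edgeR adjusted p = 0.903), Krt14 (0.00 ± 0.07, edgeR adjusted p = 0.999), Krt17 and Oxtr were not called. In bulk libraries, fewer cells of a type and less RNA per cell cannot be told apart.

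To set genes beside each other, levels were also divided by the gene length in the deposited tables (RPKM, CPM per 1000 bases). Per length, Fabp4 led at 184 ± 145 RPKM, followed by Cd36 at 17.9 ± 12.7, Lipe at 5.84 ± 1.44, Lpl at 2.66 ± 1.45 and Pparg at 1.3 ± 0.646 RPKM (mean ± SD over all 8 libraries). Lep averaged 0.466 ± 0.322 RPKM, Plin1 0.173 ± 0.0722, Adipoq 0.0904 ± 0.0603, Cidec 0.0342 ± 0.0402 and Retn 0.0265 ± 0.034 RPKM. The carriers and enzymes of fatty acid uptake and release were thus the abundant members, and Plin1, Cidec and the secreted hormones the scarce ones. Neighbours in this order that differed by less than the larger of their SDs were Cd36 and Lipe, Lpl and Pparg, Lep and Plin1, Adipoq and Cidec, and Cidec and Retn, with SDs that include the differences between populations.

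**Figure D1:**
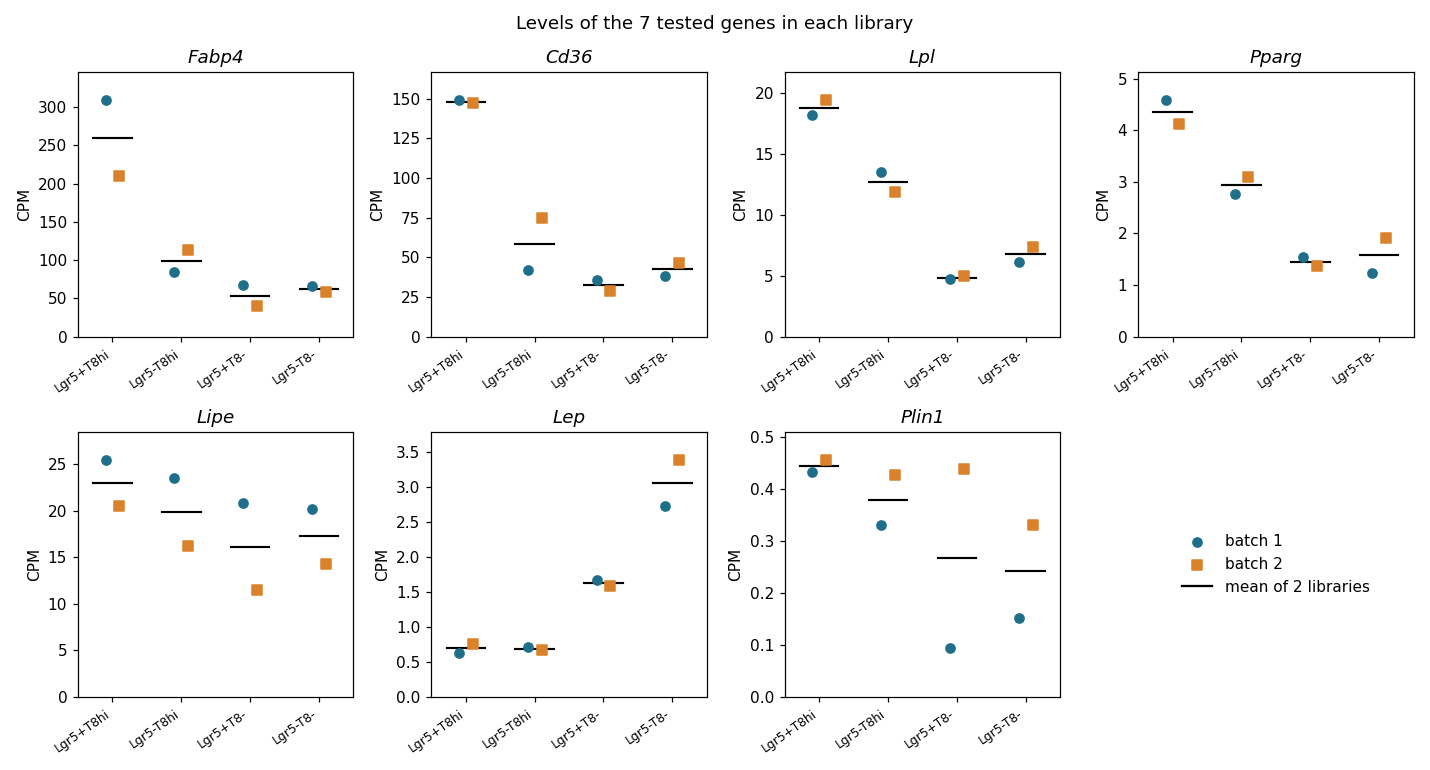
Levels of the 7 tested genes, with CPM on the vertical axis (each panel its own scale, starting at 0) and the 4 populations along the horizontal axis; circles are batch 1, squares batch 2 and lines the mean of 2 libraries. For Lpl, Fabp4 and Pparg every T8hi library lies above every T8- library, for Lep every T8hi library lies below, and Cd36, Lipe and Plin1 overlap.

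Lpl (Entrez 16956, chromosome 8, 68880555 to 68906932, GRCm38.p6) encodes the secreted lipase that frees fatty acids at the vessel wall. It stood at 18.2 and 19.4 CPM in Lgr5+T8hi, 13.5 and 11.9 CPM in Lgr5-T8hi, 4.72 and 4.98 CPM in Lgr5+T8- and 6.15 and 7.35 CPM in Lgr5-T8- libraries. The 4 T8hi libraries all lay above the 4 T8- libraries, and the 4 populations did not overlap each other at all. Lpl was 1.43 ± 0.10 log2 units higher in T8hi than in T8- cells (SE, edgeR adjusted p = 3.74e-06), with 1.53 in batch 1 and 1.32 in batch 2. The difference was 1.95 ± 0.15 within Lgr5+ cells (edgeR adjusted p = 2.21e-05), a 3.87-fold change, and 0.91 ± 0.14 within Lgr5- cells (edgeR adjusted p = 0.0017). The call within Lgr5- cells was lost without the batch term (edgeR adjusted p = 0.063).

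Lpl was also the member called in the interaction of the 2 markers. Its T8 difference was 1.04 ± 0.20 log2 units larger within Lgr5+ than within Lgr5- cells (interaction, edgeR adjusted p = 0.0202, 0.81 in batch 1 and 1.27 in batch 2). Of the 7 genes, 1 was called higher in this comparison, and 0 lower, against 2.18% and 0.363% of all genes tested. By Lgr5, Lpl was 0.57 ± 0.13 higher in Lgr5+ than in Lgr5- cells among T8hi cells (edgeR adjusted p = 0.0399) and -0.47 ± 0.15 among T8- cells (edgeR adjusted p = 0.0836). The interaction call was lost without the batch term (edgeR adjusted p = 0.238) and on leaving out Lgr5+T8hi replicate 1 (0.0908) or 2 (0.128), Lgr5+T8- replicate 1 (0.0502) or 2 (0.0741), or Lgr5-T8hi replicate 2 (0.11). The Lgr5 call among T8hi cells was lost without the batch term (edgeR adjusted p = 0.396) and on leaving out either Lgr5+T8hi library (0.261 and 0.347) or either Lgr5-T8hi library (0.142 and 0.538).

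Fabp4 (Entrez 11770, chromosome 3, 10204342 to 10208616) encodes the fatty acid binding protein that carries fatty acids inside adipocytes and capillary endothelium. It stood at 309 and 210 CPM in Lgr5+T8hi, 84 and 113 CPM in Lgr5-T8hi, 67.3 and 39.8 CPM in Lgr5+T8- and 66.3 and 58 CPM in Lgr5-T8- libraries. Both Lgr5+T8hi libraries stood far above the rest, the Lgr5-T8hi libraries came next, and the T8- populations overlapped each other. Fabp4 was 1.49 ± 0.20 log2 units higher in T8hi than in T8- cells (edgeR adjusted p = 0.00571), with 1.27 in batch 1 and 1.68 in batch 2. Within Lgr5+ cells the difference was 2.28 ± 0.29 (edgeR adjusted p = 0.0065), a 4.86-fold change, and within Lgr5- cells 0.69 ± 0.28 (edgeR adjusted p = 0.261), which was not called.

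The difference between these Fabp4 effects, 1.59 ± 0.39 log2 units, did not pass the threshold (edgeR adjusted p = 0.151). The T8 call was lost without Lgr5-T8- replicate 1 (edgeR adjusted p = 0.172) or 2 (0.121), and the call within Lgr5+ cells likewise (0.129 and 0.113), while the log2 fold changes stayed at 1.48 and 1.51, and at 2.31 and 2.27. Without Lgr5-T8hi replicate 1 the interaction (edgeR adjusted p = 0.0148) and the T8 difference within Lgr5- cells (0.00185) were called, as was the interaction without Lgr5-T8hi replicate 2 (3.30e-05).

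Cd36 (Entrez 12491, chromosome 5, 17781690 to 17888959) encodes a scavenger receptor that takes up fatty acids and lipoproteins. It stood at 149 and 147 CPM in Lgr5+T8hi, 41.8 and 74.6 CPM in Lgr5-T8hi, 36 and 28.7 CPM in Lgr5+T8- and 38.1 and 46.7 CPM in Lgr5-T8- libraries. The Lgr5+T8hi libraries stood apart at the top, and Lgr5-T8hi replicate 1 fell among the T8- libraries. Cd36 was 1.31 ± 0.19 log2 units higher in T8hi than in T8- cells (edgeR adjusted p = 0.0065), with 1.09 in batch 1 and 1.51 in batch 2. The difference was 2.18 ± 0.27 within Lgr5+ cells (edgeR adjusted p = 0.00541), a 4.53-fold change, and 0.44 ± 0.26 within Lgr5- cells (edgeR adjusted p = 0.45), which was not called.

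The Cd36 interaction was 1.74 ± 0.37 log2 units (edgeR adjusted p = 0.0968), and it was called by DESeq2 (adjusted p = 0.0166) and by edgeR without Lgr5-T8hi replicate 1 (adjusted p = 0.00791) or 2 (3.09e-05) or Lgr5+T8- replicate 1 (0.0249). As with Fabp4, the T8 call was lost without Lgr5-T8- replicate 1 (edgeR adjusted p = 0.178) or 2 (0.119), and so was the call within Lgr5+ cells (0.119 and 0.0969). Within Lgr5- cells the difference was 0.84 without Lgr5-T8hi replicate 1 (edgeR adjusted p = 0.015) and -0.02 without replicate 2 (0.986). Among T8hi cells, Lgr5+ stood above Lgr5- by 1.37 ± 0.26 for Cd36 (edgeR adjusted p = 0.0557) and by 1.35 ± 0.28 for Fabp4 (edgeR adjusted p = 0.0761), and neither was called. DESeq2 called both (adjusted p = 0.00375 for Cd36 and 0.00857 for Fabp4), and RLE factors (0.049), the stricter filter (0.0418) and limma-voom (0.0425) called Cd36. In edgeR's test both were called on leaving out either Lgr5-T8hi or either Lgr5+T8- library, with adjusted p of 2.81e-05 to 0.037 for Cd36 and 1.59e-05 to 0.0397 for Fabp4.

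Pparg (Entrez 19016, chromosome 6, 115360879 to 115490404) encodes the nuclear receptor that drives fat cell differentiation, and Cd36, Fabp4 and Lpl are among its known targets. It stood at 4.58 and 4.12 CPM in Lgr5+T8hi, 2.77 and 3.09 CPM in Lgr5-T8hi, 1.54 and 1.36 CPM in Lgr5+T8- and 1.24 and 1.91 CPM in Lgr5-T8- libraries. The T8hi libraries all lay above the T8- libraries, with Lgr5+T8hi above Lgr5-T8hi, and the T8- populations overlapped each other. Pparg was 1.24 ± 0.18 log2 units higher in T8hi than in T8- cells (edgeR adjusted p = 5.45e-04), with 1.35 in batch 1 and 1.14 in batch 2. The difference was 1.58 ± 0.25 within Lgr5+ cells (edgeR adjusted p = 0.00172), a 2.99-fold change, and 0.91 ± 0.25 within Lgr5- cells (edgeR adjusted p = 0.0502), at the edge of the threshold. The difference within Lgr5- cells was called without a count filter (edgeR adjusted p = 0.0341) and without Lgr5-T8- replicate 2 (0.0163).

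Lipe (Entrez 16890, chromosome 7, 25379527 to 25398486) encodes hormone-sensitive lipase, which cleaves stored diglyceride and cholesterol esters. It stood at 25.4 and 20.5 CPM in Lgr5+T8hi, 23.5 and 16.2 CPM in Lgr5-T8hi, 20.8 and 11.5 CPM in Lgr5+T8- and 20.2 and 14.3 CPM in Lgr5-T8- libraries. Batch 1 was higher than batch 2 in every population, the T8hi and T8- libraries overlapped over both batches, and within each batch the T8hi libraries lay above the T8- libraries. Lipe was 0.37 ± 0.09 log2 units higher in T8hi than in T8- cells (edgeR adjusted p = 0.0167), with 0.25 in batch 1 and 0.51 in batch 2, the smallest of the 5 rises. Within Lgr5+ cells the difference was 0.54 ± 0.13 (edgeR adjusted p = 0.0213) and within Lgr5- cells 0.20 ± 0.13 (edgeR adjusted p = 0.45). GENCODE vM21 places the antisense gene 4732471J01Rik over 918 of the 5886 exon bases of Lipe, and without a stated strand setting their reads cannot be told apart.

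The Lipe T8 call was lost without the batch term (edgeR adjusted p = 0.593) and on leaving out replicate 2 of Lgr5+T8hi (0.105), replicate 1 of Lgr5-T8hi (0.0558) or replicate 2 of Lgr5+T8- cells (0.0791). The call within Lgr5+ cells was lost without the batch term (edgeR adjusted p = 0.765), Lgr5+T8hi replicate 2 (0.294) or Lgr5+T8- replicate 2 (0.249).

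Lep (Entrez 16846, chromosome 6, 29060221 to 29073876) encodes leptin, the hormone by which fat stores signal to the brain. It stood at 0.634 and 0.756 CPM in Lgr5+T8hi, 0.714 and 0.666 CPM in Lgr5-T8hi, 1.67 and 1.59 CPM in Lgr5+T8- and 2.73 and 3.38 CPM in Lgr5-T8- libraries. These levels rest on 22 and 20, 26 and 25, 53 and 40, and 90 and 92 counts in the same order, all above the limit of 3 counts. The T8hi libraries lay together at the bottom, below both T8- populations, and the Lgr5-T8- libraries stood at the top. Lep was thus the member that ran opposite to Lpl, Fabp4, Cd36 and Pparg.

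Lep changed by -1.69 ± 0.20 log2 units in T8hi against T8- cells (edgeR adjusted p = 1.65e-04), with -1.65 in batch 1 and -1.69 in batch 2. The difference was -1.24 ± 0.30 within Lgr5+ cells (edgeR adjusted p = 0.0215) and -2.13 ± 0.27 within Lgr5- cells (edgeR adjusted p = 4.83e-04), where Lep was 4.39-fold lower in T8hi cells. These 2 differences did not pass the test against each other (interaction 0.89 ± 0.41, edgeR adjusted p = 0.432). Between Lgr5+ and Lgr5- cells Lep differed by 0.00 ± 0.33 among T8hi cells (edgeR adjusted p = 0.999) and by -0.89 ± 0.25 among T8- cells (edgeR adjusted p = 0.0501), which was called with RLE normalization (0.0477), a stricter count filter (0.0413) and limma-voom (0.0458). The call within Lgr5+ cells was lost without the batch term (edgeR adjusted p = 0.0664), with DESeq2 (0.083), and on leaving out either Lgr5+T8hi library (0.2 and 0.133) or either Lgr5+T8- library (0.144 and 0.0743).

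Promoter sequences of Lep, Cd36 and Pparg, from RefSeq on GRCm38.p6, show the stretches before 1 annotated start each of a gene that fell and of a pair that rose with T8. The Cd36 and Pparg stretches lie inside the gene spans given above, so these starts are not the outermost ones of those genes. RefSeq promoter entries matched 8 of the 10 genes, and each sequence covers the 250 bases before 1 annotated start, written 5′ to 3′ on the gene's strand. Capitals mark matches on either strand to the C/EBP palindrome TTGCGCAA, the nuclear receptor element AGGTCA, the TATA box TATAAA or the GC box GGGCGG. Pparg has 3 promoter entries, of which the first by coordinate is shown.
Lep, chr6:29059971-29060220, plus strand: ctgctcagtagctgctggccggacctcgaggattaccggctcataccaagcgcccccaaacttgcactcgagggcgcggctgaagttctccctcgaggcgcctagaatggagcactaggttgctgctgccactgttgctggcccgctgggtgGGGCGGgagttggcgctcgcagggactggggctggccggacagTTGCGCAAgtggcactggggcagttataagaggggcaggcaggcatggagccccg
Cd36, chr5:17835897-17836146, minus strand: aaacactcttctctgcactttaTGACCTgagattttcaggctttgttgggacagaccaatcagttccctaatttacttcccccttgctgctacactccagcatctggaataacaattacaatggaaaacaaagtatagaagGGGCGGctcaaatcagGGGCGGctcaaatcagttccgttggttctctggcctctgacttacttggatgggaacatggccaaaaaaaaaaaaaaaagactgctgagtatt
Pparg, chr6:115360894-115361143, plus strand: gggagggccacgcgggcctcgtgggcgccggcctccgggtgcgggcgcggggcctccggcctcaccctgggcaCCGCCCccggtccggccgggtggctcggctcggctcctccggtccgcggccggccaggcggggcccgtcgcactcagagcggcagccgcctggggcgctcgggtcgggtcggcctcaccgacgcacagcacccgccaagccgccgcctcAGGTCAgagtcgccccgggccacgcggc
The Lep stretch holds the C/EBP palindrome at 55 to 48 bases before the start, a match found in 0.164% of the 32851 promoters of the table over the same 250 bases, and a GC box at 98 to 93. The Cd36 stretch holds AGGTCA on the opposite strand at 228 to 223 bases before the start and GC boxes at 109 to 104 and 93 to 88. The Pparg stretch holds AGGTCA at 28 to 23 bases before the start and a GC box on the opposite strand at 177 to 172. AGGTCA occurs in 14% of all promoters, GGGCGG in 32.7% and TATAAA in 12.4%, and the PPAR-RXR element, a direct repeat of AGGTCA with 1 base between the copies, occurs in 0.0335% and in none of the 3 stretches printed. These matches describe letters in the reference genome, and binding was not measured.

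Plin1, Cidec, Adipoq and Retn had few counts. Plin1 (Entrez 103968, chromosome 7, 79721164 to 79732904), which encodes perilipin, the coat of the adipocyte lipid droplet, had 15 and 12 counts in Lgr5+T8hi, 12 and 16 in Lgr5-T8hi, 3 and 11 in Lgr5+T8- and 5 and 9 in Lgr5-T8- libraries. Its T8- libraries ranged more widely than its T8hi libraries, and the groups overlapped in CPM. The T8 difference was 0.77 ± 0.41 log2 units (edgeR adjusted p = 0.256), with 1.53 in batch 1 and 0.19 in batch 2, and it was not called.

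Adipoq (Entrez 11450, chromosome 16, 23146536 to 23157968), which encodes adiponectin, one of the most abundant proteins made by adipocytes, had 4 and 5 counts in Lgr5+T8hi, 8 and 2 in Lgr5-T8hi, 2 and 4 in Lgr5+T8- and 3 and 0 in Lgr5-T8- libraries. Cidec (Entrez 14311, chromosome 6, 113424634 to 113435760), which helps droplets fuse, had 7 and 1, 2 and 3, 0 and 0, and 3 and 0 counts in the same order. Retn (Entrez 57264, chromosome 8, 3655770 to 3659818), which encodes resistin, had 4 and 1, 0 and 3, 0 and 1, and 0 and 0 counts. Above 3 counts stood Adipoq in 4 of the 8 libraries, Cidec in 1 and Retn in 1. In a fit without the count filter none of the 3 was called in any of the 7 comparisons, with edgeR adjusted p-values of 0.235 to 1.

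**Figure D2:**
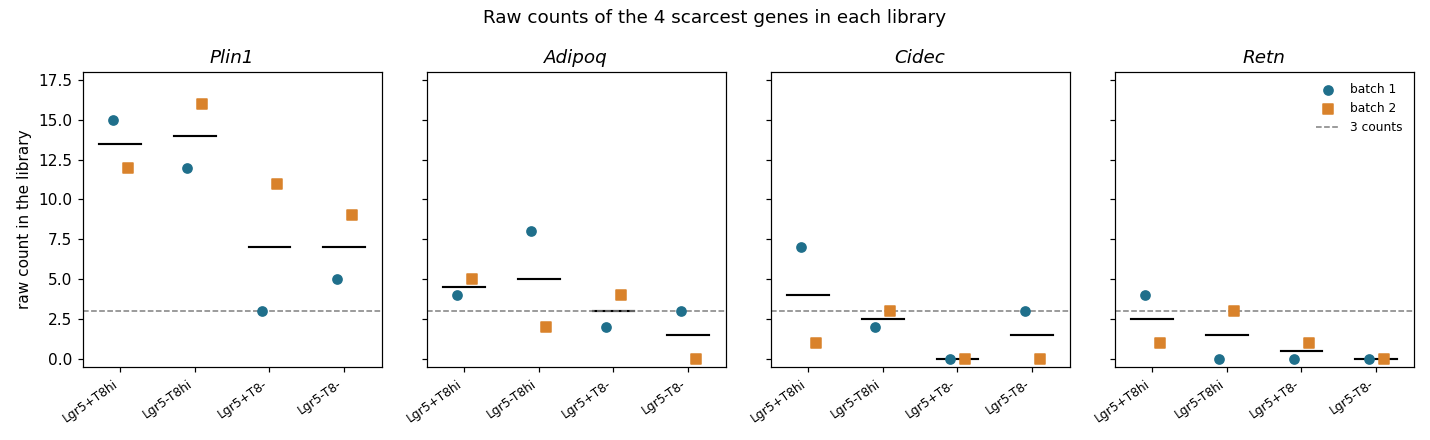
Raw counts per library (vertical axis) of Plin1, Adipoq, Cidec and Retn in the 4 populations (horizontal axis); circles are batch 1, squares batch 2, short lines the mean of 2 libraries and the dashed line 3 counts. Plin1 reaches 16 counts at most and the other genes 8 at most, with several libraries at 0.

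Split by the other marker, the comparisons gave the following counts over the 7 tested genes, of which Lpl alone was called in the interaction. Within Lgr5+ cells 5 of 7 were called higher and 1 lower in T8hi cells, against 7.27% and 2.17% of all genes tested. Within Lgr5- cells 1 of 7, Lpl, was called higher and 1, Lep, lower, against 3.70% and 3.36% of all genes. Among T8hi cells 1 of 7, Lpl, was called higher in Lgr5+ cells and 0 lower, against 2.29% and 1.05% of all genes. Among T8- cells 0 of 7 were called in either direction, against 3.81% of all genes higher and 5.05% lower.

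For so few genes, 0 calls by Lgr5 is near the background of 4.23% higher and 4.86% lower over all genes and is no result about these genes. For the Lgr5 effect 2 of the 7 genes, Fabp4 at 0.56 ± 0.20 log2 units (edgeR adjusted p = 0.173) and Cd36 at 0.50 ± 0.18 (edgeR adjusted p = 0.185), had an unadjusted p under 0.05, and DESeq2 and limma-voom also called 0. Both were called without Lgr5-T8hi replicate 2 (edgeR adjusted p = 1.61e-04 for Fabp4 and 4.87e-04 for Cd36), and Cd36 without Lgr5+T8- replicate 2 (0.0349). Among T8- cells 2 of the 7, Lpl and Lep, had an unadjusted p under 0.05 in edgeR's test, and DESeq2 called 0 and limma-voom 1.

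**Figure D3:**
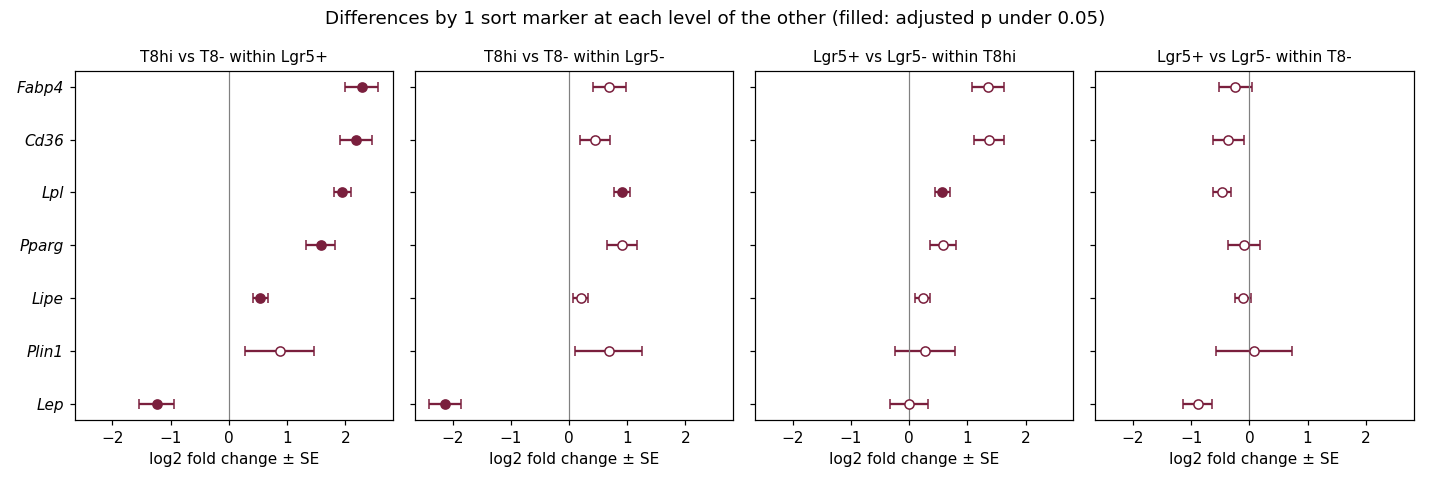
Log2 fold changes (horizontal axis) ± SE of the 7 tested genes (rows) in 4 comparisons, T8hi against T8- within Lgr5+ and within Lgr5- cells and Lgr5+ against Lgr5- within T8hi and within T8- cells; filled points have an edgeR adjusted p under 0.05. Fabp4, Cd36, Lpl, Pparg and Lipe are filled to the right and Lep to the left within Lgr5+ cells, and Lpl and Lep are the filled points within Lgr5- cells.

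The order of populations also differed between members. Of the 7 tested genes, 3 had all 4 T8hi libraries above all 4 T8- libraries, Lpl, Fabp4 and Pparg, against 4.08% of all genes tested, and 1, Lep, had them all below, against 2.66%. Among the same 7 genes, both Lgr5+T8hi libraries were the highest of the 8 for Lpl, Fabp4, Cd36 and Pparg, against 8.51% of all genes tested. Both Lgr5-T8- libraries were the highest for Lep, against 7.09% of all genes.

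Across the 8 libraries the log2 CPM of Fabp4 and Cd36 had a Pearson r of 0.962 and those of Lpl and Pparg one of 0.96, as a description of libraries that share populations and batches. Lep had an r of -0.78 with Lpl and -0.822 with Pparg, and Plin1 had an r of 0.38 with Fabp4 and 0.631 with Lpl. Per length, Fabp4 exceeded Cd36 by 12.7 and 8.72 times in Lgr5+T8hi, 12.3 and 9.26 in Lgr5-T8hi, 11.4 and 8.48 in Lgr5+T8- and 10.7 and 7.61 in Lgr5-T8- libraries. This ratio separated the batches, with every batch 1 library above every batch 2 library, more than it separated the populations. Lipe exceeded Lpl per length by 1.73 and 1.31 times in Lgr5+T8hi, 2.17 and 1.69 in Lgr5-T8hi, 5.47 and 2.87 in Lgr5+T8- and 4.06 and 2.41 in Lgr5-T8- libraries. That ratio was lower in every T8hi library than in every T8- library.

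The genes whose log2 CPM followed each member most closely were taken from 10556 genes, as a description over 8 libraries. For Cd36 these were Emcn at an r of 0.992, Grrp1 at 0.988 and Pecam1 at 0.987, of which Emcn and Pecam1 are endothelial surface proteins. Pecam1 stood at 124 and 138 CPM in Lgr5+T8hi, 31.7 and 73.4 CPM in Lgr5-T8hi, 32.2 and 25.2 CPM in Lgr5+T8- and 38.4 and 47.7 CPM in Lgr5-T8- libraries. Per length, Cd36 stood at 0.823 to 1.11 times Pecam1 in all 8 libraries.

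Fabp4 was followed most closely by Neurl3 at an r of 0.988, Tnfrsf1b, a TNF receptor, at 0.986 and Selp, which encodes P-selectin of endothelium and platelets, at 0.984. Selp stood at 404 and 245 CPM in Lgr5+T8hi, 93.3 and 174 CPM in Lgr5-T8hi, 88.1 and 47.1 CPM in Lgr5+T8- and 69.6 and 56.6 CPM in Lgr5-T8- libraries. Lpl was followed by Islr at 0.99, Cadm3 at 0.981 and Col6a3, a chain of collagen VI, at 0.98, and per length it stood at 0.9 to 1.23 times Col6a3. Lipe was followed by Fgb, a fibrinogen chain, at 0.98, Has1, a hyaluronan synthase, at 0.98 and Kctd12 at 0.977, genes that like Lipe were higher in batch 1 in every population.

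Markers of other cell types moved with the T8hi gate, where 9.13% of all genes tested were called higher and 5.52% lower. Of 16 endothelial markers 10 were called higher and 0 lower in T8hi cells (median log2 fold change 1.10), of 14 tested leukocyte markers 10 and 0 (1.24), of 12 fibroblast markers 10 and 0 (1.42), of 10 pericyte markers 8 and 0 (0.95) and of 15 tested luminal markers 11 and 0 (1.20). Within Lgr5+ cells 14 endothelial, 13 leukocyte, 11 fibroblast, 8 pericyte and 8 luminal markers were called higher in T8hi cells and 0 lower. The shares of all genes were 7.27% and 2.17%. Within Lgr5- cells 0 endothelial, 0 leukocyte, 8 fibroblast, 0 pericyte and 12 luminal markers were called higher, and 1 fibroblast marker lower. Here the shares of all genes were 3.70% and 3.36%. In the interaction, the test of the difference between these strata, 4 endothelial, 7 leukocyte, 3 fibroblast, 4 pericyte and 0 luminal markers were called higher. None of these lists had a lower call there, and the shares of all genes were 2.18% higher and 0.363% lower. Of 9 basal markers 0 were called higher and 5 lower in T8hi cells (-0.32).

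Summed levels show the same lists library by library. Endothelial markers summed to 626 to 714 CPM in Lgr5+T8hi, 218 to 402 in Lgr5-T8hi, 157 to 209 in Lgr5+T8- and 270 to 272 CPM in Lgr5-T8- libraries. Fibroblast markers summed to 1100 to 1340, 776 to 912, 385 to 426 and 595 to 771 CPM in the same order, and leukocyte markers to 43.8 to 64.2, 25.9 to 28.7, 17.9 to 19.5 and 23.7 to 27.6 CPM. All 3 lists were highest in Lgr5+T8hi and lowest in Lgr5+T8- libraries, as Lpl and Cd36 were. Pericyte markers summed to 396 to 476, 281 to 408, 265 to 429 and 245 to 371 CPM and luminal markers to 1870 to 2520, 1670 to 2330, 1400 to 2170 and 1130 to 1490 CPM. The largest part of the pericyte sum in every library came from Mcam, at 124 to 360 CPM. Mcam was not called by T8 (0.05 ± 0.08 log2 units, edgeR adjusted p = 0.742), so the pericyte sums say little about the other genes of that list. The part of these cells in the levels of Lpl, Fabp4, Cd36 and Pparg was not tested.

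The list of adipocyte markers did not move with the T8hi gate in this way. It leaves out Lpl, Fabp4, Cd36, Pparg and Lipe, the members called higher by T8, so this result depends on that choice of genes. The 16 markers, of which Lep, Adipoq, Plin1, Cidec and Retn are also members, summed to 57.2 to 58.8 CPM in Lgr5+T8hi, 59.9 to 61.1 in Lgr5-T8hi, 60.4 to 65 in Lgr5+T8- and 90.2 to 94 CPM in Lgr5-T8- libraries. Of the 11 tested, 0 were called higher in T8hi cells and 3 lower, Lep, Plin4 and Slc2a4 (median 0.15). Among all genes the shares were 9.13% and 5.52%. Plin4 was lower in T8hi libraries within Lgr5- cells, while within Lgr5+ cells the T8hi library lay above the T8- library in each batch. Mean levels were under 1 CPM for 11 of the 16, with the defining markers Adipoq, Cidec and Retn at 0 in 1, 3 and 4 of the 8 libraries, and 0 of the 16 were at 0 in all 8. Much of the sum in every library came from Slc2a4, the insulin-responsive glucose transporter of fat and muscle, at 33.1 to 40.9 CPM in T8hi and 42.8 to 55.4 CPM in T8- libraries. In both Lgr5-T8- libraries, where the sum was highest, Plin4 was at 36.1 and 21.4 CPM, against 5.34 to 14.1 CPM in the other 6 libraries, and Slc2a4 at 42.8 and 55.4 CPM.

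**Figure D4:**
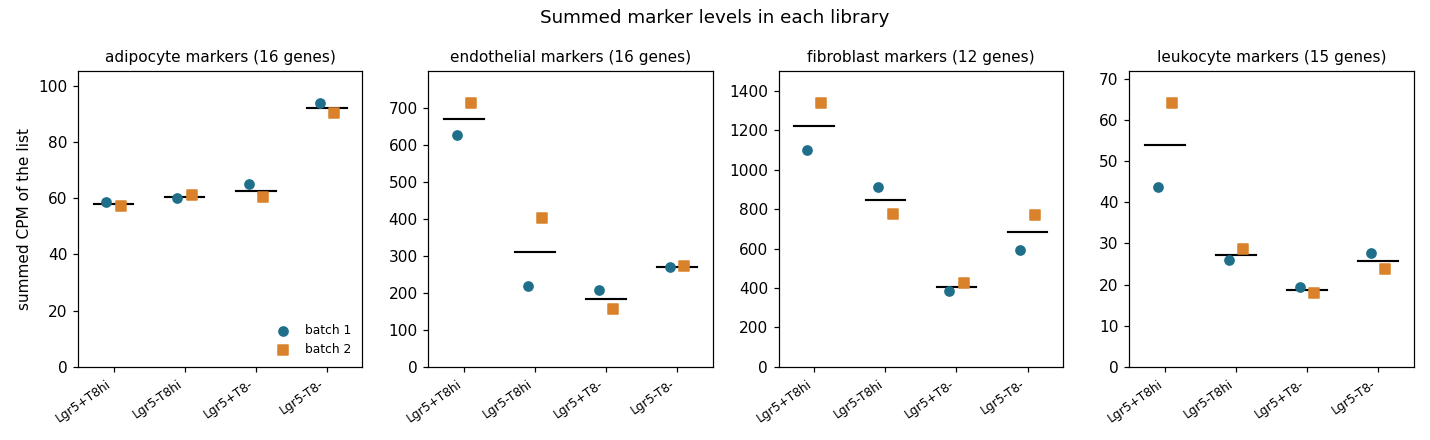
Summed CPM (vertical axis, each panel its own scale from 0) of adipocyte, endothelial, fibroblast and leukocyte markers in each library of the 4 populations (horizontal axis); circles are batch 1, squares batch 2 and lines the mean of 2 libraries. The endothelial, fibroblast and leukocyte sums are highest in both Lgr5+T8hi libraries, and the adipocyte sum is highest in both Lgr5-T8- libraries.

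The wider pathway was read against all genes tested, of which 9.13% were called higher and 5.52% lower by T8 and 4.23% and 4.86% by Lgr5. Among 20 tested partners of lipid uptake 2 were called higher in T8hi cells and 2 lower (median -0.04), and the list summed to 2570 to 2880 CPM in T8hi and 2640 to 3010 CPM in T8- libraries. Gpihbp1, the endothelial protein that anchors Lpl at the capillary wall, was 1.13 ± 0.25 log2 units higher (edgeR adjusted p = 0.0114) and Scarb1, a lipoprotein receptor, 0.59 ± 0.08 higher (edgeR adjusted p = 5.64e-04). Slc27a6, a fatty acid transporter, changed by -0.99 ± 0.11 (edgeR adjusted p = 1.21e-04) and Vldlr, a lipoprotein receptor, by -0.35 ± 0.09 (edgeR adjusted p = 0.0188). By Lgr5, 1 was called higher and 3 lower: Cavin1, a caveolar coat protein, at 0.32 ± 0.07 (edgeR adjusted p = 0.0114), Slc27a6 at -0.94 ± 0.11 (2.73e-04), Vldlr at -0.65 ± 0.09 (6.43e-04) and the fatty acid transporter Slc27a1 at -0.54 ± 0.09 (0.00231).

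Among 15 tested genes of the lipid droplet and lipolysis 0 were called higher and 1 lower in T8hi cells (median 0.14), and 0 higher and 3 lower in Lgr5+ cells. The list summed to 349 to 410 CPM in T8hi and 317 to 393 CPM in T8- libraries. Plin4, a droplet coat protein, stood at 9.8 and 6.77 CPM in Lgr5+T8hi, 14.1 and 7.8 CPM in Lgr5-T8hi, 7.12 and 5.34 CPM in Lgr5+T8- and 36.1 and 21.4 CPM in Lgr5-T8- libraries. Like Lep, it was highest in both Lgr5-T8- libraries. Its T8 difference was -0.50 ± 0.10 (edgeR adjusted p = 0.00459) and its Lgr5 difference -1.28 ± 0.10 (edgeR adjusted p = 1.05e-05). Mgll, which cleaves monoglyceride, and Plin2, the droplet coat found in most cells, differed by Lgr5 by -0.49 ± 0.07 (edgeR adjusted p = 9.18e-04) and -0.36 ± 0.08 (edgeR adjusted p = 0.012). Mgll, Pnpla2, the lipase that starts triglyceride breakdown, and Hilpda, its inhibitor, were not called by T8, at -0.18 ± 0.07, 0.20 ± 0.07 and 0.17 ± 0.06 (edgeR adjusted p of 0.113, 0.0786 and 0.0791), nor was Cideb by Lgr5, at -1.29 ± 0.49 (0.14). The Mgll interaction was called, at 0.89 ± 0.14 (edgeR adjusted p = 0.00715). Mgll stood at 49.8 and 51.3 CPM in Lgr5+T8hi and 44.9 and 39.3 CPM in Lgr5+T8- libraries. In Lgr5-T8hi libraries it stood at 53.5 and 51 CPM and in Lgr5-T8- libraries at 76.1 and 85.6 CPM.

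Among 18 tested genes of fat synthesis 1 was called higher and 1 lower in T8hi cells (median 0.02), and 0 higher and 1 lower in Lgr5+ cells. The list summed to 1010 to 1250 CPM in T8hi and 1100 to 1260 CPM in T8- libraries. Agpat2, which adds the second acyl chain, was 0.35 ± 0.11 higher in T8hi cells (edgeR adjusted p = 0.0451), and Slc2a4 changed by -0.34 ± 0.08 (edgeR adjusted p = 0.0107). Thrsp and Srebf1, regulators of lipid synthesis, were not called, at 1.04 ± 0.38 (edgeR adjusted p = 0.0921) and 0.18 ± 0.07 (0.139). By Lgr5 the desaturase Scd1 changed by -0.40 ± 0.09 (edgeR adjusted p = 0.0122), while fatty acid synthase Fasn stood at -0.32 ± 0.09 (0.0519), the elongase Elovl6 at -0.33 ± 0.10 (0.0643) and Gpam at -0.34 ± 0.11 (0.0813), and these were not called.

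Among 26 tested regulators of fat cell formation 5 were called higher and 1 lower in T8hi cells (median 0.05), and 0 higher and 3 lower in Lgr5+ cells. The list summed to 2070 to 2320 CPM in T8hi and 2140 to 2330 CPM in T8- libraries. Ebf1 and Ebf2, transcription factors of the adipocyte lineage that are also found in stromal cells, were 1.48 ± 0.15 (edgeR adjusted p = 4.24e-05) and 1.67 ± 0.18 (edgeR adjusted p = 6.21e-05) higher in T8hi cells. Dlk1, a preadipocyte surface protein that restrains differentiation, was 0.87 ± 0.13 higher (edgeR adjusted p = 8.80e-04), and Ppargc1b, a coactivator of mitochondrial genes, changed by -0.70 ± 0.14 (0.00449). By Lgr5, Ppargc1b changed by -0.86 ± 0.14 (edgeR adjusted p = 0.00173), Prdm16, a regulator of brown fat, by -0.80 ± 0.16 (0.00796) and Klf5 by -0.27 ± 0.07 (0.0395), and Klf15, at -0.71 ± 0.28 (0.157), was not called.

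Among 20 tested adipokines and receptors 6 were called higher and 2 lower in T8hi cells (median 0.20), and 0 higher and 3 lower in Lgr5+ cells. The list summed to 708 to 967 CPM in T8hi and 675 to 1050 CPM in T8- libraries. Sfrp5, a secreted Wnt inhibitor, was 1.77 ± 0.16 higher in T8hi cells (edgeR adjusted p = 2.77e-05), Agt, angiotensinogen, 1.13 ± 0.17 higher (7.98e-04) and Ccdc3, a secreted protein, 0.85 ± 0.13 higher (6.96e-04). By Lgr5, Cdh13, a receptor for adiponectin, changed by -0.24 ± 0.07 (edgeR adjusted p = 0.0361) and Npr3, a clearance receptor for natriuretic peptides, by -0.85 ± 0.24 (0.0471), and Ccdc3, at -0.41 ± 0.13 (0.0665), was not called.

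Lepr, the leptin receptor, named here after its values were seen, was higher in T8hi cells on average, where its ligand was lower. It stood at 11.5 and 15.5 CPM in Lgr5+T8hi, 3.57 and 7.96 CPM in Lgr5-T8hi, 2.9 and 2.75 CPM in Lgr5+T8- and 4.64 and 4.52 CPM in Lgr5-T8- libraries. The Lgr5+T8hi libraries were highest, Lgr5-T8hi replicate 1 lay among the T8- libraries, as it did for Cd36, and among T8- cells Lepr, like Lep, was lower in both Lgr5+ than in both Lgr5- libraries. Lepr was 1.24 ± 0.19 log2 units higher in T8hi than in T8- cells (edgeR adjusted p = 0.00237), and its interaction was 1.95 ± 0.39 (edgeR adjusted p = 0.0343).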

How the data were processed

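Total RNA from sorted cells was sequenced single-end, per the labels. Each deposited table gives, per Entrez gene, a raw read count made by the authors, without normalization, and a gene length in bases. Per the submitters' processing notes, which state no roles, the build was mm10 (GRCm38) and the tools included limma 3.24.14, edgeR 3.10.2, featureCounts and CASAVA 1.8.2. The aligner and strand setting are not given in the sources used here, so overlapping genes are uncertain. Symbols, coordinates and promoters came from RefSeq (GRCm38.p6), matched by Entrez identifier for 25260 of 27164 genes, and the unmatched ones took 2.56 to 2.86% of a library's counts.

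All 8 libraries entered 1 fit of population and batch (3 residual degrees of freedom) in edgeR 4.0.16 under R 4.3.3, after TMM scaling (factors 0.935 to 1.07) and filterByExpr (minimum count 10), with the robust two-sided quasi-likelihood F-test. Benjamini-Hochberg adjustment ran over the 16526 genes tested, and calls used a threshold of 0.05. The standard error is the log2 fold change divided by the square root of F, and within-batch differences used CPM with an offset of 0.5 counts. The T8 (Tspan8) and Lgr5 effects are means over the levels of the other marker. Replicate number equals the batch in the labels, and libraries of the same number deviated together (in all 6 pairs of populations r across genes was 0.373 to 0.51), so batch was kept as a block. Replicates, which are of different batches, had a chi-square per degree of freedom of 37.2 to 59 against counting noise, so none was treated as a library deposited again.

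The 10 members and all gene lists were chosen with earlier results of these data known. Named besides the members were, from each pathway list, the up to 4 genes with the smallest adjusted p for the T8 effect and, where any passed, for the Lgr5 effect, and the 3 genes most correlated with each member of at least 5 mean CPM, without predicted or unnamed genes. A gene that this rule names in the list of adipokines and receptors is not reported here. Alternatives were no batch block, RLE factors, no count filter, a stricter filter (1 CPM or more in 4 libraries), limma-voom (limma 3.58.1), DESeq2 1.42.0 and leaving out each library. A population then left with 1 library was assumed to vary like the others.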

Additional observations from a re-analysis of the deposited data

Results flagged for a closer look

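The T8 difference of Lpl was larger within Lgr5+ than within Lgr5- cells by 1.04 ± 0.20 log2 units (edgeR interaction test, adjusted p = 0.0202), 0.81 in batch 1 and 1.27 in batch 2. It stands here because an effect of the same contrast differed between cells of the 2 Lgr5 classes. The endothelial, leukocyte and fibroblast marker sums were also highest in Lgr5+T8hi and lowest in Lgr5+T8- libraries, and their part in this result was not tested.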

How the results depend on the processing

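Lpl, Lep and Pparg kept their T8 calls in every setting, including each library left out. Without the batch block, genes called higher and lower numbered 550 and 155 by T8 (1509 and 912 with it), 89 and 130 by Lgr5 (699 and 803), 1 and 0 in the interaction (361 and 60), 484 and 28 by T8 within Lgr5+ (1201 and 359), 76 and 71 by T8 within Lgr5- (611 and 556), 0 and 0 by Lgr5 within T8hi (379 and 173) and 64 and 144 by Lgr5 within T8- cells (630 and 834). The interaction had 91 lower calls with no count filter and 39 with the stricter filter. Of the members, without the batch block 4 were called higher by T8 and by T8 within Lgr5+ cells, 0 in the interaction (1 with it), 0 lower by T8 within Lgr5+ (1), 0 higher by T8 within Lgr5- (1) and 0 by Lgr5 within T8hi cells (1). DESeq2 called 2 in the interaction, 0 lower by T8 within Lgr5+ and 3 higher by Lgr5 within T8hi cells. That last number was 2 with RLE, the stricter filter and limma-voom, each of which also called 1 lower by Lgr5 within T8- cells. No filter gave 2 higher by T8 within Lgr5- cells. The cause was not tested. Sign changed for values near 0: Lep by Lgr5 within T8hi cells was -0.00 with no filter, and Plin1 by Lgr5 within T8- cells -0.04 with limma-voom.

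Leaving out 1 library at a time, calls ran over 950 to 1722 higher and 403 to 1652 lower by T8, 342 to 1210 and 364 to 1408 by Lgr5, 104 to 422 and 14 to 162 in the interaction, 544 to 1457 and 83 to 733 by T8 within Lgr5+, 290 to 926 and 199 to 1017 by T8 within Lgr5-, 23 to 597 and 11 to 356 by Lgr5 within T8hi, and 295 to 1078 and 455 to 1276 by Lgr5 within T8- cells. Members called higher ran over 3 to 5 by T8, 0 to 2 by Lgr5, 0 to 3 in the interaction, 3 to 5 by T8 within Lgr5+, 1 to 3 by T8 within Lgr5- and 0 to 3 by Lgr5 within T8hi cells, and lower 0 to 1 by T8 within Lgr5+ cells. Log2 fold changes that changed sign ran over -0.03 to 0.12 (Lpl), -0.40 to 0.46 (Plin1) and -0.07 to 0.15 (Lipe) by Lgr5, -0.40 to 1.30 (Plin1, interaction), -0.02 to 0.84 (Cd36, T8 within Lgr5-), -0.13 to 0.13 (Lep) and -0.20 to 0.76 (Plin1) by Lgr5 within T8hi, and -0.61 to 0.06 (Fabp4), -1.05 to 0.66 (Plin1), -0.42 to 0.25 (Pparg) and -0.37 to 0.08 (Lipe) by Lgr5 within T8- cells. Plin1 had at most 16 counts in a library, and Adipoq, Cidec and Retn at most 8.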
